A study of Mus musculus with 145 samples.

Results

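The transcriptional step between 48 h and 24 h of T cell stimulation was measured in mouse lymph node T cells cultured with beads that carry antibodies to CD3 and CD28. It was taken from the array titles as CD8 lymph node cells at 48 h minus 24 h and CD4 lymph node cells at 48 h minus 24 h, with 2 arrays in each of the 4 groups. The 96 h groups hold 1 array of each cell type and are given by their levels alone. These 10 arrays stand among 145 in the series, and 12 more arrays of the same stimulation, at 1 h, at 5 h and of controls, entered the fit so that all groups shared 1 estimate of the spread.

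All groups came from male C57BL/6 mice 6 weeks old, with no genetic change named. CD8 cells were sorted as CD8+ CD4- and CD4 cells as CD4+ CD8-. Both were also TCR+, CD25- and CD62Lhi with CD44 Lo, and cells bearing CD11c, CD25, CD49b, Gr1 or Ter119, among other markers, were excluded. Controls carry the same culture label as the stimulated cells but no time. The labels name dissection and trimming as the separation, and do not say whether the sort came before or after the culture. Nothing says that replicate arrays came from separate mice or cultures, so a p-value here speaks of the spread between arrays alone, and that spread may be technical.

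The receptor for antigen signals through CD3, and CD28 adds a costimulatory signal. In naive T cells this first induces immediate early and cytokine genes, then MYC and the growth of ribosomes and metabolism, then DNA replication and mitosis. Resting T cells keep a different set of genes active, among them receptors for leaving and finding lymph nodes, which stimulation lowers. CD8 cells can become killer cells and CD4 cells helper cells.

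Levels are given as the deposited linear intensity of a probe set, listed as replicate 1 and replicate 2. A change is the log2 fold change at 48 h over 24 h with its standard error (SE, n = 2 arrays per group). A gene was called, and is said to have risen or fallen, at an adjusted p under 0.05 from limma with Benjamini-Hochberg adjustment over the 14411 probe sets tested. Levels of different genes are not set against each other, since each probe set has its own scale.

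The arrays had median intensities of 116 to 127, and the replicate arrays at 24 h and 48 h correlated across probe sets with r of 0.991 to 0.995. Genes of other organs gave a background level of 143 (the 90th percentile of the values of 16 such genes over the 22 arrays of the fit). Those values ran from 27.7 to 290. Actc1 among them lay above 143 in every group at 24 h, 48 h and 96 h. Tnnt2 was itself called lower at 48 h (adjusted p = 0.0181 in CD8 and 0.000184 in CD4 cells), so levels not far above 143 are uncertain. Where every array of a group lay below that level, the size of the fitted change is treated as not measured. The higher group's mean over the background level is then given as a bound. This level is a convention taken from other probe sets. Each probe set has its own scale, and its own background, which was not measured, may lie lower or higher, so the bounds hold for this level only. Cd8a stood at 4016 and 4125 in CD8 cells at 48 h, against 3523 and 3393 at 24 h, and at 86.0 and 89.0 in CD4 cells at 48 h, against 86.0 and 92.6 at 24 h. Cd4 stood at 4952 and 6022 in CD4 cells at 48 h, against 3827 and 4686 at 24 h, and at 92.3 and 122 in CD8 cells at 48 h, against 77.0 and 98.0 at 24 h. Each cell type thus held its own marker and lay below background for the other, while Cd8b1, the second CD8 chain, read 309 and 392 in CD4 cells at 48 h and 322 and 348 at 24 h. Il2ra, which encodes the CD25 that the sort excluded, had 2244 and 3159.8 in CD8 cells at 48 h, against 5912 and 8001 at 24 h, and 5129.6 and 5539 in CD4 cells at 48 h, against 6054 and 6459 at 24 h. It fell in CD8 cells (change -1.37 ± 0.21, adjusted p = 0.000105) and was not called in CD4 cells, and its control means were 50.1 in CD8 and 152 in CD4 cells.

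Markers of myeloid cells, neutrophils, NK cells and erythroid cells lay at or below background in every group at 24 h, 48 h and 96 h, with 8 of 8, 5 of 5, 4 of 4 and 1 of 1 measured markers. The myeloid marker Itgam was called higher in CD4 cells, at 131 and 131 at 48 h, against 69.9 and 55.4 at 24 h, all below background, and Lyz2 averaged 238 in CD4 cells at 5 h. Of the dendritic cell markers 6 of 8 lay below background at 24 h and 48 h. Those above it were Cd74, with 139 and 158 in CD8 cells at 48 h, against 185 and 277 at 24 h, and 553 and 639.8 in CD4 cells at 48 h, against 517 and 599 at 24 h, and H2-Eb1, with 177 and 216 in CD8 cells at 48 h, against 190.5 and 158 at 24 h, and 188 and 170.1 in CD4 cells at 48 h, against 183 and 187 at 24 h, and none of the list was called. Foxp3, which defines regulatory T cells, had 269.9 and 322 in CD8 cells at 48 h, against 242 and 218 at 24 h, and 378 and 424 in CD4 cells at 48 h, against 208 and 255 at 24 h, and rose in CD4 cells (adjusted p = 0.00127). Gpr83, another gene of those cells, fell in both (adjusted p = 1.73e-07 in CD8 and 0.00277 in CD4 cells). Of the B cell markers, Cd79b alone exceeded background, with 729.5 and 668 in CD8 cells at 48 h, against 327 and 329 at 24 h, and it rose there (adjusted p = 0.0382), a call lost on leaving out any of the 4 CD8 arrays. The summed stromal markers reached 2158 to 2213 in CD8 cells at 48 h against 1117 to 1135 at 24 h, and 2430 to 2536 in CD4 cells at 48 h against 1046 to 1196 at 24 h. That sum moved with Pecam1, an adhesion molecule that T cells also express, with 1418 and 1425 in CD8 cells at 48 h, against 370.0 and 428 at 24 h, and 1742 and 1829.7 in CD4 cells at 48 h, against 400.1 and 478 at 24 h. The collagen genes Col1a1, Col1a2 and Col3a1 were not called, and the part of stromal, myeloid or dendritic cells in the results was not tested. In these bulk samples, fewer cells of a type and less RNA per cell cannot be told apart.

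Both cell types moved over much of the array in this step. In CD8 cells 4717 of 14411 probe sets were called (32.7%), 2143 higher (14.9%) and 2574 lower (17.9%) at 48 h, and 1340 of them (9.3%) by at least 2-fold, 530 higher (3.68%) and 810 lower (5.62%). In CD4 cells 4802 were called (33.3%), 2248 higher (15.6%) and 2554 lower (17.7%), and 1316 of them (9.13%) by at least 2-fold, 638 higher (4.43%) and 678 lower (4.7%). The median change over all tested probe sets was 0.021 in CD8 and -0.0023 in CD4 cells. The CD8 and CD4 arrays at these times are different arrays, and 1677 probe sets rose in both, which is 78.3% of those that rose in CD8 and 74.6% of those that rose in CD4 cells. Another 2024 fell in both, which is 78.6% of the CD8 falls and 79.2% of the CD4 falls. Across probe sets, which are not independent, the changes correlated with r = 0.890. Only 14 probe sets were called in opposite directions, 11 of them higher in CD4 and lower in CD8 cells.

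**Figure D1:**
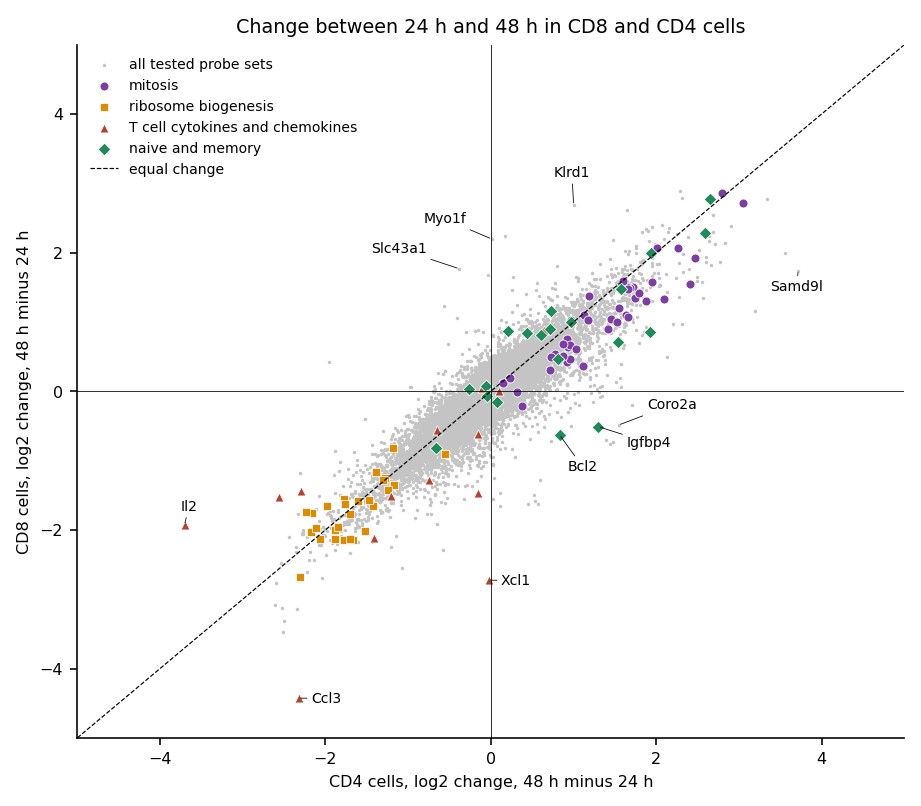
Change at 48 h over 24 h (log2) in CD4 cells on the x axis and in CD8 cells on the y axis, with 1 point per tested probe set, the mitosis, ribosome biogenesis, cytokine and naive and memory genes in colour, and selected genes named. The named genes were picked by hand and include Il2 and Samd9l, whose differences between the steps were not called. Mitosis genes lie at the upper right and ribosome biogenesis genes at the lower left, while Ccl3, Xcl1, Myo1f and Slc43a1 stand off the diagonal.

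To describe what moved, 780 genes were placed in 32 lists by known function. Of these, 730 had a probe set with a single symbol and 684 passed the filter on dim probe sets. Each list is described by how many of its tested members rose and fell and by its median change, to be read against the shares and medians of all probe sets above. A member could pass the filter through any of the 12 groups, so the counts cover only genes measured above it at some time. Where leaving out a single array moved a count by more than 1.5-fold, the count without that array follows in parentheses.

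**Figure D2:**
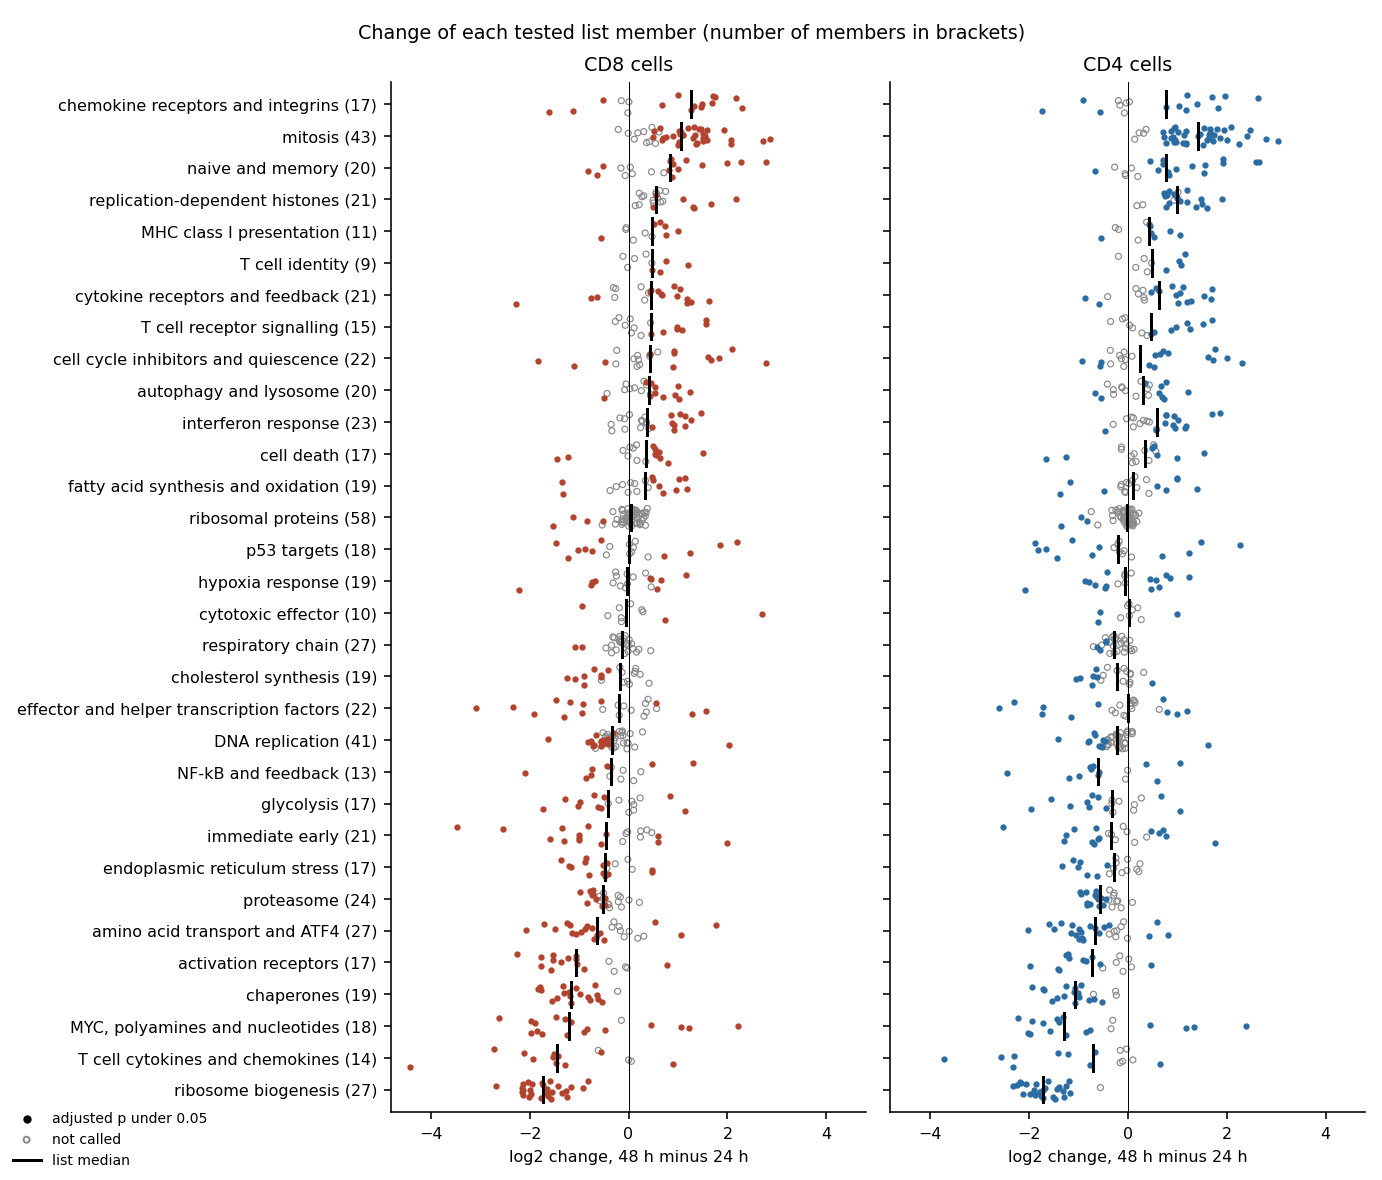
Change at 48 h over 24 h (log2) of every tested list member, in CD8 cells in the left panel and CD4 cells in the right panel, with 1 row per list. Filled points were called, open points were not, and the bar marks the median of the list. Mitosis genes and naive and memory genes lie mostly right of 0, ribosome biogenesis, chaperone and MYC genes left of 0, and ribosomal protein genes around 0.

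Most genes of mitosis rose in both cell types. Of 43 members, 33 rose in CD8 cells while 0 fell, with a median change of 1.07, and in CD4 cells 39 rose and 0 fell, with a median of 1.42. Ccnb2, a cyclin that drives entry into mitosis, had 5623 and 5957 in CD8 cells at 48 h, against 796 and 968 at 24 h. It had 5554 and 5087 in CD4 cells at 48 h, against 702 and 592 at 24 h. The 48 h arrays were several times above the 24 h arrays in each cell type, with changes of 2.72 ± 0.24 in CD8 (adjusted p = 5.51e-07) and 3.04 ± 0.24 in CD4 cells (adjusted p = 2.39e-07). Cenpa, the histone H3 variant that marks centromeres, had 2364 and 1706 in CD8 cells at 48 h, against 296 and 256 at 24 h, and 2010.0 and 1928 in CD4 cells at 48 h, against 289.8 and 276 at 24 h. Its changes were 2.87 ± 0.15 in CD8 (adjusted p = 6.88e-09) and 2.80 ± 0.15 in CD4 cells (adjusted p = 8.74e-09). Cdkn3, a phosphatase that acts on cyclin-dependent kinases, was among the largest rises of both cell types, with 773 and 839.5 in CD8 cells at 48 h, against 109 and 127 at 24 h, and 898 and 1057 in CD4 cells at 48 h, against 92.6 and 101 at 24 h. It was below background at 24 h, so that it rose at least 5.62-fold in CD8 and 6.8-fold in CD4 cells.

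The same list showed where the rise was large and where it was not. Nusap1, which bundles spindle microtubules, had 1447 and 1996 in CD8 cells at 48 h, against 342 and 588 at 24 h, and 1693 and 1585 in CD4 cells at 48 h, against 337 and 261 at 24 h. Its changes were 1.92 in CD8 and 2.47 in CD4 cells. Aspm, which works at spindle poles, changed by 2.07 in CD8 and 2.26 in CD4 cells, and Hmmr, another spindle protein, by 1.55 in CD8 and 2.40 in CD4 cells. Aspm was below background at 24 h, for rises of at least 3.97-fold in CD8 and 3.25-fold in CD4 cells, as was Hmmr in CD4 cells (at least 3.83-fold). Cdc25b, a phosphatase that activates the mitotic kinase, rose by 2.07 ± 0.14 in CD8 and 2.01 ± 0.14 in CD4 cells. Cdk1, that kinase itself, was named after its values were seen, and it stood at 1735 and 1649.9 in CD8 cells at 48 h, against 1410.1 and 1725 at 24 h, and 1737 and 1796 in CD4 cells at 48 h, against 1506 and 1699 at 24 h. Its arrays at the 2 times overlapped in CD8 cells, and it was called in neither (adjusted p = 0.569 in CD8 and 0.498 in CD4 cells). Mad2l1, Plk4 and Melk, also chosen after their values were seen, were likewise called in neither cell type. At 96 h all 43 members stood below their 48 h mean on both lone arrays, and 41 of 43 below their 24 h mean. Ccnb2 was then at 331 in CD8 and 288 in CD4 cells, and its control means were 119.9 in CD8 and 143 in CD4 cells.

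The promoters of 3 of these genes are shown because the rise was shared over a gene list, and each holds both of a pair of short elements known from promoters of mitotic genes. The letters are from RefSeq on GRCm38.p6, from 250 bases before to 50 after the gene's start, written 5′ to 3′ on the gene's strand. Capitals mark the cell cycle homology region TTTGAA and the CCAAT box, searched on both strands, so that ATTGG marks a CCAAT box on the other strand. The Ccnb2 promoter lies at chr9:70421505-70421804 on the minus strand, that of Cenpa at chr5:30666636-30666935 on the plus strand and that of Aspm at chr1:139454523-139454822 on the plus strand.
Ccnb2: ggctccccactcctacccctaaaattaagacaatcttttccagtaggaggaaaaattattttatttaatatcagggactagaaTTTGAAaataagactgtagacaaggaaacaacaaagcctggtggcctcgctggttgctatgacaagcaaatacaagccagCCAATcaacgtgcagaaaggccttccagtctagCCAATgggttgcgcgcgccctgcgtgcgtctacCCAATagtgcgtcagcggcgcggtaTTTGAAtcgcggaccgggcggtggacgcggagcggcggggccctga
Cenpa: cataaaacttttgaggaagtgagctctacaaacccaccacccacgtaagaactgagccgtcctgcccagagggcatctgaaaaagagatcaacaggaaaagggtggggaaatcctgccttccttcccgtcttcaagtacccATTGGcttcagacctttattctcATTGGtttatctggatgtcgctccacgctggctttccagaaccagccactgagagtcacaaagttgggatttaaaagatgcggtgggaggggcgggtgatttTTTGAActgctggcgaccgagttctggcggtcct
Aspm: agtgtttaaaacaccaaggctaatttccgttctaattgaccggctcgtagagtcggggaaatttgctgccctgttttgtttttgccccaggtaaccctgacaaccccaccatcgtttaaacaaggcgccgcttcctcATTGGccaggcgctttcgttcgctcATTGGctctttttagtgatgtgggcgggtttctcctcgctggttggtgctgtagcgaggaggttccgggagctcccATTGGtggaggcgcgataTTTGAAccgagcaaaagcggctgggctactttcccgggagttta
Ccnb2 holds 2 TTTGAA and 3 CCAAT, Cenpa 1 and 2, and Aspm 1 and 3, with no overlap between the marked letters. Of the 38 tested mitosis genes with a window in the table, 24 hold both elements in a window (63.2%), against 7.97% of all 27025 genes with a window. TTTGAA alone is in 28 of 38 (73.7%, all genes 20.2%) and CCAAT in 27 of 38 (71.1%, all genes 41.1%). Of the DNA replication genes, 1 of which rose in this step, 4 of 33 hold both (12.1%). Of the histone genes whose transcripts accompany DNA replication, 8 of 19 hold both (42.1%). CCAAT alone varied among lists in which more genes fell than rose. It is in 15 of 15 cholesterol synthesis genes (100%), 14 of 15 endoplasmic reticulum stress genes (93.3%) and 7 of 22 ribosome biogenesis genes (31.8%). A link between these elements and the rise was not tested. A match describes these letters and not the binding of a factor, and no match says only that the letters are not in this window.

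Genes of DNA replication fell more often than they rose. Of 41 members, 1 rose in CD8 cells while 14 fell (9 without replicate 2 at 48 h), and in CD4 cells 1 rose and 10 fell (4 without replicate 1 at 48 h). Medians over the list were -0.34 in CD8 and -0.23 in CD4 cells. Orc1, the large subunit of the complex that marks replication origins, had 157 and 121 in CD8 cells at 48 h, against 404 and 447 at 24 h, and 155 and 202 in CD4 cells at 48 h, against 383 and 578 at 24 h. The arrays at the different times did not overlap in either cell type, and the changes were -1.62 ± 0.18 in CD8 (adjusted p = 6.21e-06) and -1.41 ± 0.18 in CD4 cells (adjusted p = 2.21e-05). Mcm2, a subunit of the replicative helicase, had 1454 and 1339.7 in CD8 cells at 48 h, against 2564 and 2334 at 24 h, and 1534 and 1829 in CD4 cells at 48 h, against 2592 and 3300.1 at 24 h. On the log2 scale it changed by -0.81 in CD8 and -0.80 in CD4 cells. Mcm3, another subunit, changed by -0.76 in CD8 and -0.78 in CD4 cells and was called in both. The exception was E2f2, a transcription factor of the cell cycle, which rose with 1246 and 1283 in CD8 cells at 48 h, against 323 and 301 at 24 h, and 1201 and 1299.9 in CD4 cells at 48 h, against 371 and 442 at 24 h. By the fit it changed by 2.02 ± 0.13 in CD8 and 1.63 ± 0.13 in CD4 cells. All 41 members of the list were above control at 24 h and at 48 h in both cell types, and all 41 stood below both times at 96 h.

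Histone genes whose transcripts accompany DNA replication rose in part. In CD8 cells 7 of 21 rose (4 without replicate 1 at 24 h), with a median of 0.56, and in CD4 cells 17 (8 without replicate 1 at 24 h and 11 without replicate 1 at 48 h or replicate 2 at 48 h), with a median of 0.99, and none fell in either. H1f5, a linker histone, had 3275 and 2894 in CD8 cells at 48 h, against 1359 and 1158 at 24 h, and 3422 and 3669 in CD4 cells at 48 h, against 1318 and 1421 at 24 h. Changes were 1.30 ± 0.20 in CD8 and 1.37 ± 0.20 in CD4 cells. H1f1 rose by 1.32 ± 0.25 in CD8 and 1.60 ± 0.25 in CD4 cells. Histone genes are near copies of each other, so their probes may share transcripts and single members are uncertain. No histone gene of the list was called for a difference between the CD8 and the CD4 step.

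Alongside mitosis genes, some inhibitors of the cell cycle and genes of quiescence rose. Of 22 members, 9 rose in CD8 cells while 3 fell, and in CD4 cells 11 rose and 3 fell. Over the list the median was 0.43 in CD8 and 0.25 in CD4 cells (0.43 in CD8 and 0.09 in CD4 cells with no filter). Cdkn1b, which encodes the kinase inhibitor p27, had 1561 and 1405 in CD8 cells at 48 h, against 442 and 493 at 24 h, and 1365 and 1562 in CD4 cells at 48 h, against 430.3 and 454 at 24 h. The changes were 1.67 ± 0.12 in CD8 and 1.72 ± 0.12 in CD4 cells (adjusted p = 6.25e-08 in CD8 and 5.68e-08 in CD4 cells), and at 96 h it stood at 1820.1 in CD8 and 2326 in CD4 cells. Ccng2, a cyclin tied to cell cycle arrest, had 1099 and 702 in CD8 cells at 48 h, against 135 and 121 at 24 h, and 854 and 967 in CD4 cells at 48 h, against 189 and 178 at 24 h. It changed by 2.78 ± 0.19 in CD8 and 2.31 ± 0.19 in CD4 cells. With 24 h arrays below background, its rise in CD8 cells was at least 6.13-fold. Cdkn2c, the inhibitor p18, rose by 1.84 in CD8 and 2.01 in CD4 cells, and Txnip, which restrains glucose uptake, by 2.10 in CD8 and 1.76 in CD4 cells. The members that fell in both were the G1 genes Ccnd2 (-1.10 in CD8 and -0.56 in CD4 cells), Cdk4 (-0.47 in CD8 and -0.53 in CD4 cells) and Cdk6 (-1.82 in CD8 and -0.92 in CD4 cells), which promote the cycle and are in the list as partners of the inhibitors. The fall of Ccnd2 in CD4 cells was not called without replicate 1 at 24 h, replicate 1 at 48 h or replicate 2 at 48 h.

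**Figure D3:**
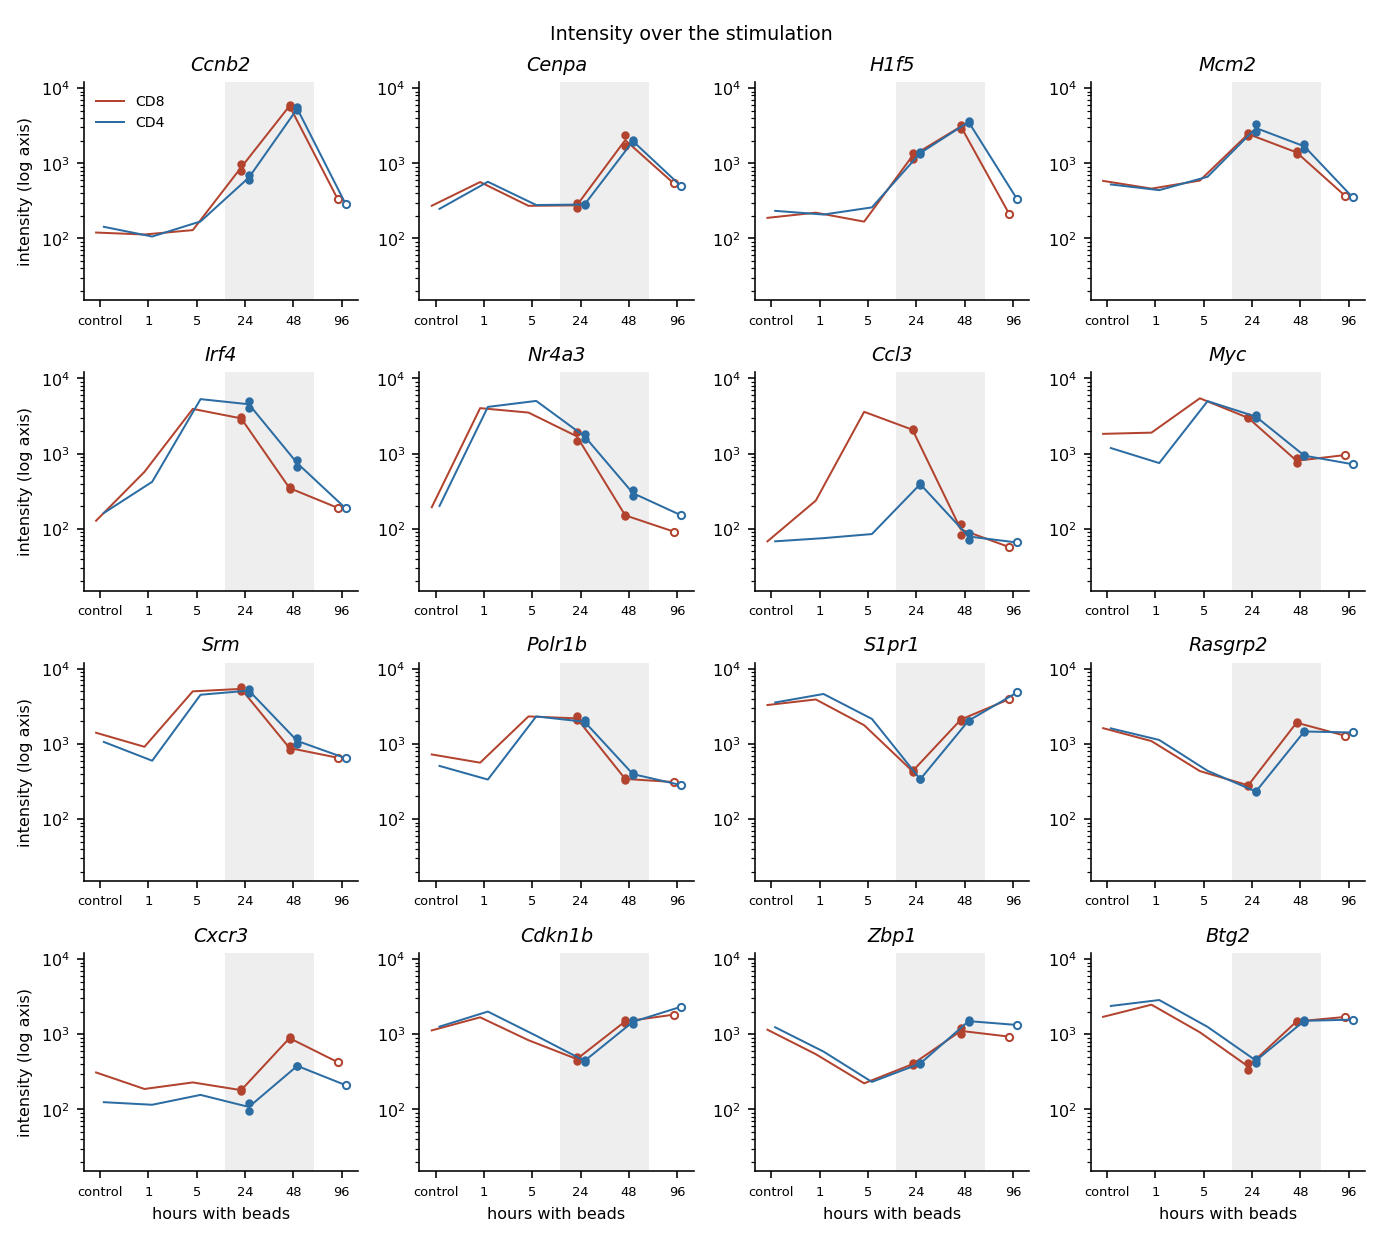
Intensity (log axis) of 16 named genes over the stimulation, from control through 1, 5, 24 and 48 h to 96 h, with the step between 24 h and 48 h shaded. Lines join group means of CD8 and CD4 cells, points are single arrays at 24, 48 and 96 h, and open points are the lone 96 h arrays. Ccnb2 and Cenpa peak at 48 h, Mcm2 at 24 h, and S1pr1 and Cdkn1b climb from 24 h through 96 h.

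Most early genes of the receptor response that moved were lower at 48 h. Of the immediate early genes, 11 of 21 fell and 3 rose in CD8 cells, and 9 fell and 5 rose (2 without replicate 1 at 24 h or replicate 2 at 48 h) in CD4 cells. The list medians were -0.46 in CD8 and -0.33 in CD4 cells. Nr4a3, a nuclear receptor induced by receptor signals, had 149 and 153 in CD8 cells at 48 h, against 1451 and 1944 at 24 h, and 325 and 270.3 in CD4 cells at 48 h, against 1820.1 and 1572 at 24 h. The 24 h arrays were higher in each cell type, and the changes were -3.48 ± 0.16 in CD8 (adjusted p = 1.78e-09) and -2.51 ± 0.16 in CD4 cells (adjusted p = 3.12e-08). Irf4, a transcription factor whose level follows the strength of the receptor signal, had 339 and 356 in CD8 cells at 48 h, against 2814 and 3069.7 at 24 h, and 666 and 825 in CD4 cells at 48 h, against 4083 and 4983 at 24 h. It changed by -3.08 ± 0.13 in CD8 (adjusted p = 7.21e-10) and -2.61 ± 0.13 in CD4 cells (adjusted p = 5.9e-09), and stood at 189 in CD8 and 187 in CD4 cells at 96 h. Dusp5, a phosphatase that acts on ERK, changed by -1.30 in CD8 and -1.30 in CD4 cells and was called in both.

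The list was mixed, because Btg2, an antiproliferative gene that also answers early to stimulation, rose. It had 1452 and 1505 in CD8 cells at 48 h, against 336 and 409.7 at 24 h, and 1447 and 1569 in CD4 cells at 48 h, against 418 and 475 at 24 h. Fitted changes were 1.99 ± 0.13 in CD8 and 1.76 ± 0.13 in CD4 cells. Fosb, a partner of AP-1, rose by 0.59 in CD8 (adjusted p = 0.0317) and 0.78 in CD4 cells (adjusted p = 0.00618). Its call was lost in CD8 cells without any array other than replicate 1 at 24 h, and in CD4 cells without replicate 1 at 24 h or replicate 2 at 48 h. In the NF-kB list 5 of 13 fell in CD8 (3 without replicate 2 at 24 h) and 8 in CD4 cells, against 2 that rose in CD8 and 3 (1 without replicate 1 at 24 h or replicate 1 at 48 h or replicate 2 at 48 h) in CD4 cells. Nfkbid, a nuclear regulator of NF-kB, had 258 and 265 in CD8 cells at 48 h, against 1102 and 1142 at 24 h, and 299 and 383 in CD4 cells at 48 h, against 1699.7 and 1974 at 24 h. Its changes were -2.10 ± 0.15 in CD8 and -2.44 ± 0.15 in CD4 cells. Traf1, an adaptor of TNF receptors, rose by 1.31 ± 0.14 in CD8 and 1.06 ± 0.14 in CD4 cells.

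Most cytokine and chemokine genes that passed the filter fell. In CD8 cells 10 of 14 fell and 1 rose (0 without replicate 2 at 48 h), and in CD4 cells 8 fell and 1 rose (0 without replicate 1 at 24 h or replicate 1 at 48 h or replicate 2 at 24 h). Medians over the list were -1.45 in CD8 and -0.70 in CD4 cells. Another 9 members with a probe set were too dim to pass, and with no filter 10 of 23 fell in CD8 and 8 in CD4 cells, with medians of -0.34 in CD8 and -0.11 in CD4 cells. Ccl3, a chemokine that draws myeloid cells and T cells, had 115 and 81.4 in CD8 cells at 48 h, against 2058 and 2096 at 24 h, and 70.8 and 87.2 in CD4 cells at 48 h, against 407 and 378 at 24 h. All 48 h arrays lay below background, so that it was at least 14.5-fold lower in CD8 (adjusted p = 2.25e-10) and at least 2.74-fold lower in CD4 cells (adjusted p = 7.5e-08). Il2, the T cell growth factor, had 41.2 and 41.3 in CD8 cells at 48 h, against 95.4 and 257 at 24 h, and 97.7 and 76.9 in CD4 cells at 48 h, against 1062 and 1201 at 24 h. Its changes were -1.92 ± 0.38 in CD8 (adjusted p = 0.000878) and -3.70 ± 0.38 in CD4 cells (adjusted p = 2.21e-06), and all 48 h arrays lay below background. The fall in CD4 cells was at least 7.88-fold. In CD8 cells the 24 h mean gave 1.09-fold, but replicate 1 at 24 h lay below background too, so no bound holds there. Tnf, an inflammatory cytokine, had 210.2 and 206 in CD8 cells at 48 h, against 938 and 863 at 24 h, and 521 and 533 in CD4 cells at 48 h, against 1278 and 1545 at 24 h. The log2 changes were -2.11 in CD8 and -1.42 in CD4 cells. Lif, a cytokine of the IL-6 family, changed by -1.44 in CD8 and -2.29 in CD4 cells and was called in both, with 48 h arrays below background and falls of at least 1.25-fold in CD8 and 2.93-fold in CD4 cells. Ccl5, a chemokine of effector and memory T cells, was the member that rose, with 337 and 424 in CD8 cells at 48 h, against 203 and 206 at 24 h, and 236 and 183 in CD4 cells at 48 h, against 139 and 126 at 24 h (adjusted p = 0.00443 in CD8 and 0.0292 in CD4 cells), where the 24 h arrays lay below background.

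Most receptors of activated T cells fell, and the inhibitory receptor Ctla4 rose. In CD8 cells 12 of 17 fell and 1 rose, and in CD4 cells 10 fell and 1 rose (0 without replicate 1 at 48 h or replicate 2 at 24 h). Over the list the median was -1.07 in CD8 and -0.72 in CD4 cells. Cd69, an early activation marker that holds cells in tissue, had 560.2 and 536 in CD8 cells at 48 h, against 1788 and 1970.1 at 24 h, and 668 and 605 in CD4 cells at 48 h, against 2633 and 2385 at 24 h. Its changes were -1.78 ± 0.12 in CD8 and -1.98 ± 0.12 in CD4 cells (adjusted p = 7.11e-08 in CD8 and 3.26e-08 in CD4 cells). Tnfrsf4, the costimulatory receptor OX40, had 216 and 217 in CD8 cells at 48 h, against 593 and 658 at 24 h, and 1307 and 1177 in CD4 cells at 48 h, against 2872 and 3034 at 24 h. The fit gave changes of -1.53 in CD8 and -1.25 in CD4 cells. Cd200 changed by -1.56 in CD8 and -1.39 in CD4 cells, and Cd274, which encodes the inhibitory ligand PD-L1, by -0.91 in CD8 and -1.40 in CD4 cells, and both were called in both cell types. Ctla4, the inhibitory receptor for CD28 ligands, rose with 1973 and 1882 in CD8 cells at 48 h, against 1136 and 1112 at 24 h, and 2511 and 2207 in CD4 cells at 48 h, against 1801 and 1585 at 24 h. Changes were 0.78 ± 0.15 in CD8 and 0.48 ± 0.15 in CD4 cells. Its control means were 131 in CD8 and 121 in CD4 cells.

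The growth programme around MYC was lower at 48 h. MYC is a transcription factor that drives nucleotide, polyamine and ribosome synthesis in activated T cells. Myc had 864 and 742 in CD8 cells at 48 h, against 3025 and 2951 at 24 h, and 926 and 953 in CD4 cells at 48 h, against 2984 and 3215 at 24 h. All 48 h arrays lay below all 24 h arrays, and the changes were -1.90 ± 0.13 in CD8 (adjusted p = 4.59e-08) and -1.72 ± 0.13 in CD4 cells (adjusted p = 1.24e-07). Its control means were 1832 in CD8 and 1185 in CD4 cells, so that the 48 h level was below control in both cell types. Of the list of MYC, polyamine and nucleotide genes, 13 of 18 fell and 4 rose in CD8 cells, and 12 fell and 4 rose in CD4 cells. The list medians were -1.20 in CD8 and -1.28 in CD4 cells.

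Srm, spermidine synthase, had 833 and 931 in CD8 cells at 48 h, against 5111 and 5676 at 24 h, and 1002 and 1192 in CD4 cells at 48 h, against 4783 and 5459.7 at 24 h. Its changes were -2.61 ± 0.15 in CD8 and -2.23 ± 0.15 in CD4 cells (adjusted p = 8.3e-09 in CD8 and 4.77e-08 in CD4 cells). Ctps, an enzyme that makes CTP, changed by -1.96 in CD8 and -2.03 in CD4 cells, and Cad, which starts pyrimidine synthesis, by -1.76 in CD8 and -1.97 in CD4 cells. Mxd4, which encodes a partner of MAX that opposes MYC, rose with 1201 and 906 in CD8 cells at 48 h, against 236 and 212 at 24 h, and 1087 and 1182 in CD4 cells at 48 h, against 191 and 245 at 24 h. It changed by 2.22 ± 0.16 in CD8 and 2.39 ± 0.16 in CD4 cells. The 4 members that rose were the genes of this MXD and MXI family, with changes of 1.23 in CD8 and 1.19 in CD4 cells for Mxd1, 1.06 in CD8 and 1.34 in CD4 cells for Mxd3 and 0.45 in CD8 and 0.45 in CD4 cells for Mxi1. The rise of Mxi1 was not called in CD8 cells without replicate 2 at 24 h or replicate 1 at 48 h, nor in CD4 cells without replicate 1 at 24 h or replicate 2 at 48 h.

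Genes that build ribosomes fell almost without exception. In CD8 cells 27 of 27 fell, with a median of -1.73, and in CD4 cells 26, with a median of -1.71, and none rose. Npm1, which encodes nucleophosmin, was the member not called in CD4 cells (adjusted p = 0.223), and its call in CD8 cells (adjusted p = 0.0388) was lost on leaving out any of the 4 CD8 arrays. Polr1b, the second largest subunit of RNA polymerase I, had 336 and 349 in CD8 cells at 48 h, against 2052 and 2323 at 24 h, and 408 and 385 in CD4 cells at 48 h, against 1888 and 2054 at 24 h. It changed by -2.67 ± 0.17 in CD8 (adjusted p = 3.78e-08) and -2.31 ± 0.17 in CD4 cells (adjusted p = 1.47e-07). Utp20, a factor of early ribosomal RNA processing, had 331 and 290.4 in CD8 cells at 48 h, against 1334 and 1194 at 24 h, and 300.4 and 358 in CD4 cells at 48 h, against 1485 and 1484 at 24 h. Fitted changes were -2.03 in CD8 and -2.18 in CD4 cells. Rrp12, which helps to export ribosomal subunits, changed by -1.73 in CD8 and -2.23 in CD4 cells. All 27 members were above control at 24 h in both cell types, and at 48 h 25 stood below control in CD8 and 18 in CD4 cells.

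Few ribosomal protein genes were called. Of 58 ribosomal protein genes 4 fell in CD8 and 3 in CD4 cells and none rose. Medians over the list were 0.06 in CD8 and -0.02 in CD4 cells. Rpl12, a protein of the large subunit, fell in both, with 219 and 190.3 in CD8 cells at 48 h, against 589.7 and 586 at 24 h, and 342 and 339.8 in CD4 cells at 48 h, against 729 and 1025 at 24 h. Rpl7l1, a relative of a large subunit protein, changed by -1.11 in CD8 and -0.95 in CD4 cells and was called in both. Ribosomal protein genes have many near-identical pseudogenes, so single members are uncertain.

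The promoter of Utp20 is shown because it holds the letters CACGTG, the E-box that MYC binds with its partner MAX. The window of RefSeq on GRCm38.p6 lies at chr10:88826765-88827064 on the minus strand, from 250 bases before to 50 after the start, and capitals mark the match, which reads the same on both strands.
Utp20: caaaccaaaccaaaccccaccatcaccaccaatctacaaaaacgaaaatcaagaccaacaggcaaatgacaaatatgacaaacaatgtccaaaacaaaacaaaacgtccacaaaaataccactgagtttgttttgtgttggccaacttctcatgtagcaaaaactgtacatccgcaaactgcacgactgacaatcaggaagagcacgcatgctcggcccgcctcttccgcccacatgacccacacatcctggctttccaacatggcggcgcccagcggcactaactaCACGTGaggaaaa
Of the ribosome biogenesis genes with a window, 5 of 22 hold CACGTG (22.7%), of the MYC, polyamine and nucleotide genes 5 of 15 (33.3%), and of all genes 8.09%. The autophagy and lysosome genes, more of which rose than fell, hold it in 6 of 17 (35.3%). Shares were also above that of all genes in p53 targets (27.3%), cholesterol synthesis genes (26.7%) and immediate early genes (23.5%), among others. In other lists they were lower, as in proteasome genes (5%). A link between CACGTG and the fall was not tested.

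Most chaperone genes and part of the amino acid and glycolysis genes fell with the growth genes. Of the chaperone genes 18 of 19 fell in CD8 and 16 in CD4 cells and none rose. Over the list the median was -1.17 in CD8 and -1.07 in CD4 cells. Hspd1, the chaperonin of mitochondria, had 1325 and 1046 in CD8 cells at 48 h, against 4524 and 3831 at 24 h, and 1251 and 1226 in CD4 cells at 48 h, against 4835 and 3439 at 24 h. Its changes were -1.82 ± 0.18 in CD8 and -1.72 ± 0.18 in CD4 cells. Hspa9, its partner of the HSP70 family, changed by -1.77 in CD8 and -1.68 in CD4 cells, and Cct3, a subunit of the cytosolic chaperonin, by -1.54 in CD8 and -1.54 in CD4 cells. Of the proteasome genes 11 of 24 fell in CD8 and 15 in CD4 cells and none rose. Psma7, a subunit of its core, had 494 and 402 in CD8 cells at 48 h, against 803 and 802 at 24 h, and 508 and 546 in CD4 cells at 48 h, against 858 and 1025 at 24 h.

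Of the amino acid transport and ATF4 genes 16 of 27 fell and 3 rose in CD8 cells, and 17 fell and 3 rose in CD4 cells. Shmt1, which moves carbon units from serine in the cytosol, had 213 and 168 in CD8 cells at 48 h, against 998 and 641 at 24 h, and 212 and 221 in CD4 cells at 48 h, against 928 and 832 at 24 h. On the log2 scale it changed by -2.08 in CD8 and -2.02 in CD4 cells. Slc7a5, the leucine transporter that activated T cells need, had 1001 and 839 in CD8 cells at 48 h, against 3218 and 2778 at 24 h, and 1064 and 1121 in CD4 cells at 48 h, against 3077 and 3529 at 24 h. By the fit it changed by -1.71 in CD8 and -1.59 in CD4 cells. At 96 h Slc7a5 stood at 407 in CD8 and 371 in CD4 cells, below its control means of 1165 in CD8 and 1024 in CD4 cells.

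In glycolysis 8 of 17 genes fell and 2 rose in CD8 cells, and 8 fell and 2 rose in CD4 cells. Hk2, the hexokinase induced by activation, had 146 and 134 in CD8 cells at 48 h, against 461 and 464 at 24 h, and 148 and 184 in CD4 cells at 48 h, against 597 and 678 at 24 h. Changes were -1.73 ± 0.15 in CD8 and -1.95 ± 0.15 in CD4 cells. Slc16a1, a lactate transporter, changed by -1.28 in CD8 and -1.56 in CD4 cells. The members that rose were Aldoc, an aldolase, with 1.15 in CD8 and 1.05 in CD4 cells, and the glucose transporter Slc2a3, with 0.84 in CD8 and 0.66 in CD4 cells. Of 27 respiratory chain genes 2 fell in CD8 (1 without replicate 2 at 24 h) and 4 in CD4 cells (0 without replicate 2 at 24 h or replicate 2 at 48 h and 1 without replicate 1 at 48 h), and none rose, which is below the 17.9% and 17.7% of all probe sets that fell.

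Few miRNA loci were called, but they included loci known from T cell activation. The array carried 100 tested probe sets of miRNA loci, of which 5 rose and 7 fell in CD8 and 8 rose and 9 fell in CD4 cells, smaller shares than over all probe sets. These probe sets measure the region of the precursor and not the mature miRNA, and several lie near background. The miRNAs below were chosen after their values were seen, because they are known from lymphocyte activation and several lie in shared clusters. Mature sequences are from RefSeq on GRCm38.p6 with the seed, bases 2 to 8, in capitals.
miR-17-5p: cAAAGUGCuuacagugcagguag
miR-20a-5p: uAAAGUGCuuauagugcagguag
miR-18a-5p: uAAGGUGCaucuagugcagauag
miR-19a-3p: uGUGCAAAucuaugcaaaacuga
miR-19b-3p: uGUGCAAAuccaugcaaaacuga
miR-15b-5p: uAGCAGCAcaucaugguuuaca
miR-16-5p: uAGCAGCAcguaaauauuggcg
miR-155-5p: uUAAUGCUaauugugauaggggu
The seeds of miR-17-5p and miR-20a-5p are the same, as are those of miR-19a-3p and miR-19b-3p and those of miR-15b-5p and miR-16-5p.

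The miR-17 to miR-92 cluster, known to promote growth and survival of lymphocytes, lies on the plus strand with miR-17-5p at chr14:115043684-115043706, miR-18a-5p at chr14:115043867-115043889, miR-19a-3p at chr14:115044048-115044070, miR-20a-5p at chr14:115044183-115044205 and miR-19b-3p at chr14:115044358-115044380. All 5 of its loci named here fell in both cell types, from dim signals. The Mir20a locus had 21.3 and 18.0 in CD8 cells at 48 h, against 75.7 and 85.0 at 24 h, and 23.7 and 23.0 in CD4 cells at 48 h, against 94.1 and 134 at 24 h. It changed by -2.03 ± 0.26 in CD8 and -2.27 ± 0.26 in CD4 cells (adjusted p = 1.99e-05 in CD8 and 7.18e-06 in CD4 cells). All of these arrays lay below the background level of 143. The Mir19a locus changed by -2.10 in CD8 and -2.22 in CD4 cells, Mir19b-1 by -2.06 in CD8 and -2.27 in CD4 cells, Mir18 by -1.86 in CD8 and -1.49 in CD4 cells and Mir17 by -0.75 in CD8 and -1.29 in CD4 cells. Mir19a and Mir17 lay below background at both times and the others of these at 48 h. The host transcript Mir17hg changed by -1.01 in CD8 (adjusted p = 0.0533, not called) and -1.13 in CD4 cells (adjusted p = 0.0307). Its 48 h arrays lay below background in both cell types, and its fall in CD4 cells was at least 1.58-fold. That call was lost with quantile normalization and on leaving out any of the 4 CD4 arrays. The calls of Mir17 in CD8 cells, without replicate 1 at 24 h or at 48 h, and of Mir18 in CD4 cells, without replicate 1 at 48 h, were lost too. Loci of 1 cluster come from 1 primary transcript and are not independent.

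The Mir155 locus, with miR-155-5p at chr16:84714143-84714165 on the plus strand, encodes a miRNA that activated T cells need for effector responses. It had 150.0 and 121 in CD8 cells at 48 h, against 322 and 346 at 24 h, and 168 and 136 in CD4 cells at 48 h, against 366 and 398 at 24 h. Fitted changes were -1.31 ± 0.21 in CD8 (adjusted p = 0.000193) and -1.34 ± 0.21 in CD4 cells (adjusted p = 0.000162). Its mean at 5 h had been 562 in CD8 and 632 in CD4 cells. The Mir15b locus rose, with 330.5 and 125 in CD8 cells at 48 h, against 57.9 and 42.9 at 24 h, and 242 and 241 in CD4 cells at 48 h, against 76.5 and 75.2 at 24 h. Its changes were 2.03 ± 0.40 in CD8 and 1.67 ± 0.40 in CD4 cells. With 24 h arrays below background the rise was at least 1.69-fold in CD4 cells. In CD8 cells the 48 h mean gave 1.42-fold, but replicate 2 at 48 h lay below background too, so no bound holds there. The miR-15 and miR-16 family is known to restrain the cell cycle, and miR-15b-5p lies at chr3:69009775-69009796 on the plus strand inside Smc4, a gene of the condensin complex. The Mir16-2 locus beside it lies at chr3:69009918-69009939. It had 124 and 63.2 in CD8 cells at 48 h, against 45.7 and 41.1 at 24 h. In CD4 cells it had 134 and 75.9 at 48 h, against 61.2 and 35.0 at 24 h. All of these arrays lay below background, so the size of its change is not measured. The fit gave 1.03 ± 0.39 in CD8 (adjusted p = 0.0537, not called) and 1.12 ± 0.39 in CD4 cells (adjusted p = 0.0356). The CD4 call was lost without replicate 2 at 24 h or replicate 1 at 48 h, and with no filter or with quantile normalization.

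**Figure D4:**
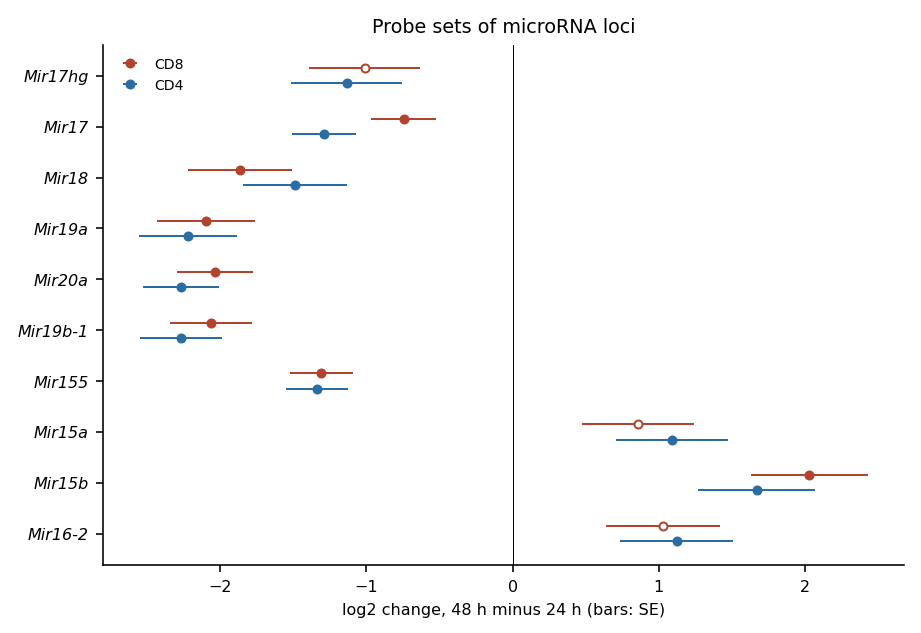
Change at 48 h over 24 h (log2) of 10 miRNA loci, with CD8 cells above CD4 cells in each row, error bars of 1 SE, and open points for loci that were not called. Loci of the miR-17 cluster and Mir155 lie left of 0, and Mir15b lies right of 0.

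Genes of naive and memory T cells rose more often than they fell. Of 20 members, 11 rose in CD8 cells while 3 fell (1 without replicate 2 at 24 h), and in CD4 cells 14 rose and 1 fell. The list medians were 0.83 in CD8 and 0.77 in CD4 cells. Dtx1, a regulator of Notch signals, fell in both, by -0.81 in CD8 and -0.66 in CD4 cells, and Igfbp4 and Bcl2 in CD8 cells. S1pr1, the receptor with which T cells leave lymph nodes, had 2041 and 2179 in CD8 cells at 48 h, against 450.3 and 417 at 24 h, and 2047 and 2039 in CD4 cells at 48 h, against 337 and 341 at 24 h. The times were well apart, with changes of 2.28 ± 0.12 in CD8 (adjusted p = 7.4e-09) and 2.59 ± 0.12 in CD4 cells (adjusted p = 5.9e-09). It stood at 3946 in CD8 and 4833 in CD4 cells at 96 h, above its control means of 3292 in CD8 and 3560.5 in CD4 cells. Rasgrp2, an activator of the small GTPase Rap1 in adhesion, had 1893 and 1941 in CD8 cells at 48 h, against 288 and 275 at 24 h, and 1471 and 1457 in CD4 cells at 48 h, against 234 and 231 at 24 h. The log2 changes were 2.77 ± 0.14 in CD8 and 2.65 ± 0.14 in CD4 cells. Klf2, the transcription factor that keeps S1pr1 and other homing genes on, had 839.7 and 813 in CD8 cells at 48 h, against 324 and 270.1 at 24 h, and 844 and 880.4 in CD4 cells at 48 h, against 278 and 303 at 24 h. The fit gave changes of 1.48 in CD8 and 1.57 in CD4 cells. Pik3ip1, an inhibitor of PI3 kinase, changed by 2.00 in CD8 and 1.93 in CD4 cells and was called in both. Of the 20 members, 18 had been below control at 24 h in CD8 and 17 in CD4 cells.

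Receptors for homing and adhesion also rose more often than they fell. Of the chemokine receptors and integrins 11 of 17 rose and 3 fell in CD8 cells, and 9 rose and 3 fell in CD4 cells. Medians over the list were 1.27 in CD8 and 0.77 in CD4 cells, and 0.84 in CD8 and 0.0034 in CD4 cells over all 20 members with a probe set, with no filter. Cxcr3, which guides effector T cells to inflamed tissue, had 908 and 868 in CD8 cells at 48 h, against 187 and 173 at 24 h, and 381 and 377 in CD4 cells at 48 h, against 94.0 and 122 at 24 h. Its changes were 2.30 ± 0.14 in CD8 and 1.83 ± 0.14 in CD4 cells, and its 48 h level was above its control means of 310.2 in CD8 and 125 in CD4 cells. In CD4 cells the 24 h arrays were below background, for a rise of at least 2.65-fold. Itgb3, the beta chain of the vitronectin receptor, changed by 2.17 in CD8 and 2.64 in CD4 cells, and Itgb7, a beta chain of gut homing integrins, by 1.74 in CD8 and 1.71 in CD4 cells. The 24 h arrays of Itgb3 in CD8 cells were below background, for a rise of at least 3.51-fold. S1pr4, a relative of S1pr1, changed by 1.71 in CD8 and 1.97 in CD4 cells. Ccr8, a receptor of some helper and regulatory T cells, fell, with 145 and 189.6 in CD4 cells at 48 h, against 471 and 637 at 24 h.

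Cytokine receptors rose more often than they fell. Of 21 members, 12 rose in CD8 cells while 3 fell, and in CD4 cells 13 rose and 2 fell (1 without replicate 1 at 48 h or replicate 2 at 24 h). Il10ra, a chain of the IL-10 receptor, had 609 and 521 in CD8 cells at 48 h, against 246 and 252 at 24 h, and 644 and 692 in CD4 cells at 48 h, against 200.2 and 213 at 24 h. Changes were 1.18 ± 0.15 in CD8 and 1.69 ± 0.15 in CD4 cells. Ifngr1, a chain of the receptor for interferon gamma, had 2222 and 2464 in CD8 cells at 48 h, against 707 and 822 at 24 h, and 1198 and 1628 in CD4 cells at 48 h, against 570.1 and 586 at 24 h. It changed by 1.62 ± 0.19 in CD8 and 1.27 ± 0.19 in CD4 cells. The chains of the type I interferon receptor rose too, Ifnar1 by 1.18 in CD8 and 1.03 in CD4 cells and Ifnar2 by 1.27 in CD8 and 1.20 in CD4 cells. Il7r, which carries the survival signal of resting T cells, rose, with 1394 and 922 in CD4 cells at 48 h, against 517 and 235 at 24 h (adjusted p = 0.000164).

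Genes of the T cell receptor pathway rose in part. Of 15 T cell receptor signalling genes 7 rose in CD8 and 8 in CD4 cells and none fell. Over the list the median was 0.45 in CD8 and 0.47 in CD4 cells. Txk, a kinase below the receptor, had 1620.3 and 1440.1 in CD8 cells at 48 h, against 503 and 522 at 24 h, and 1503 and 1256 in CD4 cells at 48 h, against 421 and 418 at 24 h. Fitted changes were 1.58 in CD8 and 1.71 in CD4 cells. Sit1, a membrane adaptor, changed by 1.56 in CD8 and 1.52 in CD4 cells, and Prkcq, the kinase PKC theta, by 1.08 in CD8 and 0.87 in CD4 cells. Among the T cell identity genes 4 of 9 rose in CD8 (2 without replicate 1 at 24 h) and 4 in CD4 cells and none fell. Cd3g, a chain of CD3, had 5824 and 5609.8 in CD8 cells at 48 h, against 3304 and 3477 at 24 h, and 5569.7 and 4786 in CD4 cells at 48 h, against 2746 and 2315 at 24 h. Its changes were 0.75 ± 0.12 in CD8 and 1.03 ± 0.12 in CD4 cells.

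Interferon response genes rose in part, and most were below control at 48 h. Of 23 members, 10 rose in CD8 cells while 0 fell, and in CD4 cells 12 rose and 1 fell (0 without replicate 1 at 24 h or replicate 2 at 48 h). The list medians were 0.37 in CD8 and 0.59 in CD4 cells. Zbp1, a sensor of nucleic acids, had 1193 and 1023 in CD8 cells at 48 h, against 387 and 413 at 24 h, and 1464 and 1524 in CD4 cells at 48 h, against 404 and 413 at 24 h. On the log2 scale it changed by 1.47 ± 0.14 in CD8 and 1.87 ± 0.14 in CD4 cells. Irf7, a transcription factor of the type I interferon response, had 262 and 295 in CD8 cells at 48 h, against 123 and 129 at 24 h, and 223 and 227 in CD4 cells at 48 h, against 92.3 and 108 at 24 h. By the fit it changed by 1.15 in CD8 and 1.17 in CD4 cells, with control means of 936 in CD8 and 777 in CD4 cells. Its 24 h arrays were below background, so that it rose at least 1.94-fold in CD8 and 1.57-fold in CD4 cells. Oas3, an antiviral enzyme, changed by 1.26 in CD8 and 1.01 in CD4 cells, and Rtp4 by 1.14 in CD8 and 0.93 in CD4 cells, but Rtp4 lay below background at 24 h in CD8 cells and at both times in CD4 cells, and Oas3 at 24 h in CD4 cells. Although the list medians of the change were above 0, 20 of 23 members were below control at 48 h in CD8 and 18 in CD4 cells. Of the genes that present peptides on MHC class I, 5 of 11 rose and 1 fell (0 without replicate 1 at 24 h or replicate 2 at 48 h) in CD8 cells, and 6 rose (2 without replicate 1 at 24 h or replicate 1 at 48 h or replicate 2 at 48 h) and 1 fell (0 without replicate 1 at 24 h or replicate 1 at 48 h or replicate 2 at 48 h) in CD4 cells. Psmb9, a subunit of the immunoproteasome, had 1984 and 1328 in CD8 cells at 48 h, against 994 and 667 at 24 h, and 1751 and 1707 in CD4 cells at 48 h, against 1032 and 889.7 at 24 h. Changes were 1.00 in CD8 and 0.85 in CD4 cells.

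Transcription factors of effector and helper fate moved both ways. In CD8 cells 9 of 22 fell and 3 rose, and in CD4 cells 6 fell and 4 rose. Irf8, a relative of Irf4, had 404 and 401 in CD8 cells at 48 h, against 2019 and 2043 at 24 h, and 569.8 and 616 in CD4 cells at 48 h, against 1793 and 2072 at 24 h. It changed by -2.33 ± 0.13 in CD8 and -1.70 ± 0.13 in CD4 cells. Tbx21, which encodes T-bet, the factor of type 1 helper and effector CD8 cells, had 373 and 378 in CD8 cells at 48 h, against 739 and 969 at 24 h, and 240.4 and 200.0 in CD4 cells at 48 h, against 959 and 1225 at 24 h. Fitted changes were -1.17 ± 0.19 in CD8 and -2.31 ± 0.19 in CD4 cells. Its changes were not called different between the cell types (adjusted p = 0.123). Gata3, the factor of type 2 helper cells, rose, with 733 and 733 in CD8 cells at 48 h, against 233 and 264 at 24 h, and 1225 and 1046 in CD4 cells at 48 h, against 505 and 485 at 24 h. Its changes were 1.56 ± 0.17 in CD8 and 1.19 ± 0.17 in CD4 cells. Bhlhe40, a regulator of cytokine genes, changed by -1.91 in CD8 and -1.73 in CD4 cells (at least 2.73-fold lower in CD8 cells, where the 48 h arrays were below background).

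Cytotoxic genes were called about as often as all probe sets, of which 32.7% were called in CD8 and 33.3% in CD4 cells. Of 10 tested, 2 rose and 1 fell (0 without replicate 1 at 48 h or replicate 2 at 24 h or replicate 2 at 48 h) in CD8 cells, and 1 rose and 2 fell in CD4 cells (1 without replicate 1 at 24 h or replicate 1 at 48 h or replicate 2 at 24 h or replicate 2 at 48 h). Ctsw, a protease of killer cells, had 1318 and 1034 in CD8 cells at 48 h, against 749 and 661 at 24 h and rose there (change 0.73 ± 0.15, adjusted p = 0.00149). Gzmb, the killer protease granzyme B, was chosen after its values were seen. It had 809 and 853 in CD8 cells at 48 h, against 1101 and 1119 at 24 h, with a control mean of 62.9, and its change of -0.42 ± 0.16 was not called (adjusted p = 0.0518). In CD4 cells Gzmb lay below background at both times.

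Targets of p53 and genes of cell death were mixed. Of the p53 targets 4 of 18 rose and 6 fell in CD8 cells, and 4 rose and 7 fell in CD4 cells. Sesn1, which restrains the growth kinase mTORC1, had 2426 and 2250.2 in CD8 cells at 48 h, against 578 and 721 at 24 h, and 2199 and 2255 in CD4 cells at 48 h, against 477 and 447 at 24 h. The log2 changes were 1.86 ± 0.16 in CD8 and 2.27 ± 0.16 in CD4 cells. Trp53inp1, a p53 cofactor, changed by 2.18 in CD8 and 1.48 in CD4 cells, and Fas, the death receptor, by 1.24 in CD8 and 1.23 in CD4 cells. Tnfrsf10b, another death receptor, went the other way with 186 and 193 in CD8 cells at 48 h, against 458 and 602 at 24 h, and 223 and 232 in CD4 cells at 48 h, against 729 and 963 at 24 h. The fit gave changes of -1.47 in CD8 and -1.88 in CD4 cells. In the cell death list 8 of 17 rose (4 without replicate 1 at 24 h or replicate 1 at 48 h and 5 without replicate 2 at 24 h) and 2 fell in CD8 cells, and 5 rose (3 without replicate 2 at 48 h) and 2 fell in CD4 cells. Bcl2l1, which encodes the survival protein BCL-XL, had 239 and 202 in CD8 cells at 48 h, against 621 and 576 at 24 h, and 347 and 334 in CD4 cells at 48 h, against 934 and 1213 at 24 h. Changes were -1.44 ± 0.17 in CD8 and -1.65 ± 0.17 in CD4 cells. Bcl2l11, which encodes the killer protein BIM, rose by 0.63 in CD8 and 0.99 in CD4 cells, and Bid, another killer protein of the family, changed by -1.21 in CD8 and -1.24 in CD4 cells.

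Fatty acid genes moved both ways, and cholesterol synthesis genes fell or were not called with 1 exception. Of the fatty acid genes 8 of 19 rose (5 without replicate 2 at 24 h) and 2 fell in CD8 cells, and 5 rose and 3 fell in CD4 cells. Acaca, which commits carbon to fatty acid synthesis, had 459 and 455 in CD8 cells at 48 h, against 1224 and 1080.0 at 24 h, and 413 and 433 in CD4 cells at 48 h, against 1050.3 and 1148 at 24 h. It changed by -1.33 ± 0.13 in CD8 and -1.37 ± 0.13 in CD4 cells. Fasn, fatty acid synthase, changed by -1.35 in CD8 and -1.16 in CD4 cells. Cpt1a, which carries fatty acids into mitochondria for oxidation, had 1333 and 1608 in CD8 cells at 48 h, against 569.6 and 731 at 24 h, and 1361 and 1445 in CD4 cells at 48 h, against 492 and 573 at 24 h. Fitted changes were 1.18 ± 0.22 in CD8 and 1.40 ± 0.22 in CD4 cells. Of 19 cholesterol synthesis genes 8 fell (5 without replicate 1 at 24 h or replicate 2 at 48 h) and 0 rose in CD8 cells, and 6 fell and 1 rose (0 without replicate 1 at 24 h or replicate 1 at 48 h or replicate 2 at 48 h) in CD4 cells. Hsd17b7, an enzyme of its later steps, changed by -1.08 in CD8 and -1.04 in CD4 cells, and Lss, lanosterol synthase, by -0.90 in CD8 and -0.70 in CD4 cells.

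Endoplasmic reticulum stress genes fell or were not called with few exceptions, and hypoxia genes moved both ways. Of the endoplasmic reticulum stress genes 11 of 17 fell (6 without replicate 2 at 48 h) and 2 rose (0 without replicate 1 at 24 h or replicate 1 at 48 h and 1 without replicate 2 at 24 h or replicate 2 at 48 h) in CD8 cells, and 7 fell and 0 rose in CD4 cells. Hspa5, the main chaperone of that compartment, had 1516 and 1101 in CD8 cells at 48 h, against 3159 and 2622 at 24 h, and 1451 and 1534 in CD4 cells at 48 h, against 3187 and 2824 at 24 h. Its changes were -1.16 in CD8 and -1.01 in CD4 cells. The hypoxia list was mixed, with 5 of 19 higher (3 without replicate 1 at 24 h or replicate 1 at 48 h or replicate 2 at 24 h) and 4 lower (1 without replicate 2 at 24 h and 2 without replicate 1 at 48 h) in CD8 cells, and 7 higher (4 without replicate 2 at 48 h) and 7 lower (2 without replicate 1 at 48 h or replicate 2 at 24 h and 3 without replicate 2 at 48 h and 4 without replicate 1 at 24 h) in CD4 cells. Ak4, a mitochondrial adenylate kinase, had 155 and 161 in CD8 cells at 48 h, against 620.2 and 872 at 24 h, and 238 and 334 in CD4 cells at 48 h, against 1038 and 1367 at 24 h. On the log2 scale it changed by -2.22 ± 0.20 in CD8 and -2.08 ± 0.20 in CD4 cells. Pdk1, a kinase that inhibits pyruvate dehydrogenase, changed by 1.16 in CD8 and 0.78 in CD4 cells. Of the autophagy and lysosome genes 10 of 20 rose and 1 fell (0 without replicate 2 at 48 h) in CD8 cells, and 7 rose and 2 fell (0 without replicate 1 at 48 h or replicate 2 at 24 h) in CD4 cells. Grn, which encodes the lysosomal protein progranulin, changed by 1.24 in CD8 and 1.21 in CD4 cells, and Map1lc3b, a protein of the autophagosome membrane, by 1.00 in CD8 and 0.67 in CD4 cells.

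Among the 10 largest rises and falls of each cell type were genes outside these lists. Samd9l, an interferon-inducible growth suppressor, had 549.9 and 680.0 in CD8 cells at 48 h, against 143 and 234 at 24 h, and 452 and 253 in CD4 cells at 48 h, against 36.8 and 17.9 at 24 h. By the fit it changed by 1.74 ± 0.33 in CD8 and 3.72 ± 0.33 in CD4 cells. In CD4 cells the 24 h arrays were below background, so that the measured rise was at least 2.36-fold and its place among the largest rises rests on values that are not above background. Epsti1, another interferon-inducible gene, changed by 2.54 in CD8 and 2.68 in CD4 cells, and Nod1, a sensor of bacterial cell wall, by 2.13 in CD8 and 2.71 in CD4 cells. Epsti1 was below background at 24 h in CD4 cells, for a rise of at least 5.21-fold. H2az2, a histone variant, changed by 2.40 in CD8 and 2.07 in CD4 cells, Anxa2, a membrane binding protein, by 2.62 in CD8 and 1.64 in CD4 cells, and Cd7, a surface receptor of T cells, by 2.30 in CD8 and 2.69 in CD4 cells. Anxa2 was below background at 24 h, for rises of at least 4.82-fold in CD8 and 2.81-fold in CD4 cells. On the other side Bcat1, which breaks down branched amino acids, had 181 and 179.7 in CD8 cells at 48 h, against 958 and 1041 at 24 h, and 199 and 239 in CD4 cells at 48 h, against 1127 and 1415 at 24 h. Changes were -2.47 in CD8 and -2.53 in CD4 cells. Dctd, which makes dUMP, changed by -3.14 in CD8 and -2.34 in CD4 cells, Utf1, a chromatin factor known from embryonic stem cells, by -3.32 in CD8 and -2.50 in CD4 cells, and Mettl1, which methylates transfer RNA, by -2.24 in CD8 and -2.36 in CD4 cells. Utf1 was below background at 48 h, at least 5.14-fold lower in CD8 and 2.9-fold lower in CD4 cells. All of these were called in both cell types.

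The CD8 step minus the CD4 step, fitted as a difference of the changes, showed few genes that moved differently. Of 14411 probe sets 50 were called (0.347%), 13 with the CD8 change above the CD4 change (0.0902%) and 37 below it (0.257%), and 44 differed by at least 2-fold (0.305%), 10 above (0.0694%) and 34 below (0.236%). At an unadjusted p under 0.05 there were 637. With 1 array left out in turn there were 33 to 49 called differences, the fewest without replicate 2 of CD8 cells at 48 h.

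Of the 14 tested cytokine genes 3 were called for a difference, Xcl1, Ccl3 and Ifng, all with the CD8 change below the CD4 change. Il2 and Il3 went the other way, with differences of 1.78 ± 0.53 for Il2 (adjusted p = 0.397) and 1.04 ± 0.48 for Il3 (adjusted p = 0.999), not called. Il3 had means of 19.8 at 48 h and 56.8 at 24 h in CD8 cells, and 23.0 and 135 in CD4 cells. Il3 thus lay below background in all 4 groups, and Il2 at 48 h, so the size of neither difference is measured. Both were called without replicate 2 of CD8 cells at 24 h, and Il2 also with all arrays of the series in one fit. For some of the called genes a whole group lay below background, so that the size of the difference is not measured. Xcl1, a chemokine that draws cross-presenting dendritic cells, had 151 and 188 in CD8 cells at 48 h, against 977 and 1276 at 24 h, and 59.5 and 66.0 in CD4 cells at 48 h, against 58.3 and 69.4 at 24 h. It fell in CD8 cells (change -2.72 ± 0.19) and lay below background in CD4 cells at both times. The difference between cell types was -2.70 ± 0.27 (adjusted p = 8.89e-05). Ccl3, whose values are above, was called for a difference (-2.11 ± 0.23, adjusted p = 0.000191), but both cell types ended below background at 48 h, so that the fitted difference follows their 24 h levels. Its call was lost with all arrays of the series in one fit. Ifng, which encodes interferon gamma, was chosen after its values were seen. It had 105 and 109 in CD8 cells at 48 h, against 265 and 329 at 24 h, and 91.8 and 94.9 in CD4 cells at 48 h, against 103 and 104 at 24 h. The steps differed by -1.31 ± 0.20 (adjusted p = 0.00441), but only the CD8 arrays at 24 h were above background, and with all arrays of the series in one fit the call was lost. Its fall in CD8 cells was at least 2.06-fold. Nr4a1, a nuclear receptor that reports receptor signals, had 201 and 188 in CD8 cells at 48 h, against 1129.7 and 1144 at 24 h, and 714 and 716 in CD4 cells at 48 h, against 1400.1 and 1626 at 24 h. The difference between cell types was -1.47 ± 0.19 (adjusted p = 0.00117), a call lost with all arrays of the series in one fit.

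In some genes the cell types moved in opposite directions. Bcl2, the survival protein, had 1231 and 1328 in CD8 cells at 48 h, against 1741 and 2246 at 24 h, and 2229 and 2123 in CD4 cells at 48 h, against 1336 and 1117 at 24 h. It fell in CD8 cells (change -0.63 ± 0.16) and rose in CD4 cells (change 0.83 ± 0.16). The steps differed by -1.46 ± 0.23 (adjusted p = 0.00512), but its fall in CD8 cells was not called without replicate 2 at 24 h. Igfbp4, a binding protein of insulin-like growth factors, had 544 and 566 in CD8 cells at 48 h, against 738 and 847 at 24 h, and 2762 and 3152 in CD4 cells at 48 h, against 1091 and 1314 at 24 h. The difference between cell types was -1.81 ± 0.18 (adjusted p = 8.29e-05), and its fall in CD8 cells was likewise lost without that array. Coro2a, an actin binding protein of the coronin family, had 676 and 756 in CD8 cells at 48 h, against 964 and 1038 at 24 h, and 919.7 and 905 in CD4 cells at 48 h, against 299.6 and 325 at 24 h. The steps differed by -2.03 ± 0.19 (adjusted p = 8.29e-05). Its fall in CD8 cells was not called without replicate 2 at 24 h or without replicate 1 at 48 h. Slc43a1, a transporter of large neutral amino acids, had 1037 and 965 in CD8 cells at 48 h, against 313 and 275 at 24 h, and 148 and 139 in CD4 cells at 48 h, against 178 and 197 at 24 h. It rose in CD8 cells (change 1.77 ± 0.14), and its difference was 2.15 ± 0.20 (adjusted p = 8.29e-05). Its lower level in CD4 cells (adjusted p = 0.0446) was not called on leaving out any of the 4 CD4 arrays.

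Other genes differed by the test of the difference, most of them with a rise in CD8 cells, where Pdlim4 and Zbtb32 did not rise. Myo1f, an unconventional myosin of immune cells, had 833 and 697 in CD8 cells at 48 h, against 168 and 165 at 24 h, and 106 and 125 in CD4 cells at 48 h, against 109.6 and 119.5 at 24 h. The CD4 arrays lay below background, and the difference between cell types was 2.19 ± 0.21 (adjusted p = 8.29e-05). Itgae, the alpha chain CD103 that binds E-cadherin of epithelium, had 885 and 1088 in CD8 cells at 48 h, against 304 and 308 at 24 h, and 51.5 and 68.3 in CD4 cells at 48 h, against 55.3 and 66.1 at 24 h. It rose by 1.68 ± 0.16 in CD8 cells, with a difference of 1.71 ± 0.23 (adjusted p = 0.00138) against CD4 arrays below background, a call lost with all arrays of the series in one fit. Slc6a19, a transporter of neutral amino acids, had 694 and 570.3 in CD8 cells at 48 h, against 133 and 133 at 24 h, and 39.6 and 47.5 in CD4 cells at 48 h, against 36.3 and 40.6 at 24 h. The steps differed by 2.07 ± 0.21 (adjusted p = 0.000112). Its CD8 arrays at 24 h and all CD4 arrays were below background, and it rose at least 4.39-fold in CD8 cells. Klrd1, which encodes the receptor chain CD94, rose in CD8 cells, with 1761 and 1966 in CD8 cells at 48 h, against 233 and 357 at 24 h. It had 74.6 and 68.3 in CD4 cells at 48 h, against 38.6 and 32.9 at 24 h, all below background. Its difference of 1.69 ± 0.32 (adjusted p = 0.0298) was not called on leaving out any of the 8 arrays other than replicate 2 of CD8 cells at 24 h. Pdlim4, an actin associated protein, had 121 and 123 in CD8 cells at 48 h, against 114 and 119.5 at 24 h, and 464 and 404 in CD4 cells at 48 h, against 141 and 152 at 24 h, and rose in CD4 cells alone by its calls. The CD8 arrays lay below background, and the difference between cell types was -1.50 ± 0.20 (adjusted p = 0.00161). Zbtb32, a repressor induced by activation, fell in CD8 cells, with 301 and 306 in CD8 cells at 48 h, against 790.0 and 884 at 24 h, and 226 and 233 in CD4 cells at 48 h, against 199 and 226 at 24 h. The steps differed by -1.58 ± 0.21 (adjusted p = 0.00136).

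**Figure D5:**
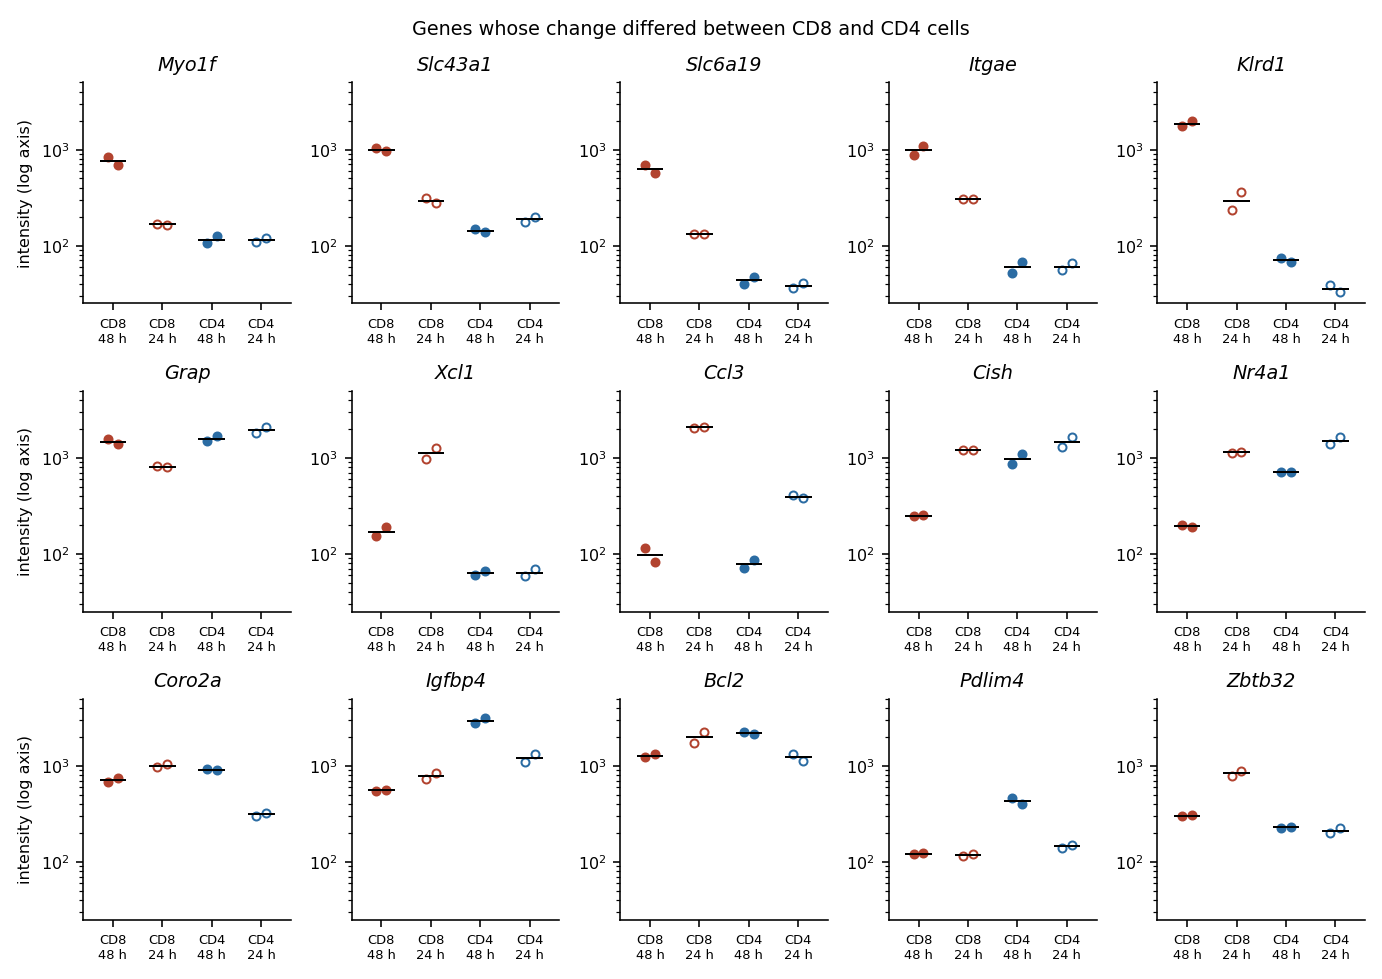
Intensity (log axis) of 15 genes called for a difference between the CD8 and the CD4 step, with 1 point per array for CD8 cells at 48 h, CD8 cells at 24 h, CD4 cells at 48 h and CD4 cells at 24 h, and a bar at the mean of the log2 values. Xcl1 and Ccl3 are high in CD8 cells at 24 h, and Myo1f and Itgae are higher at 48 h than at 24 h in CD8 cells.

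The lone arrays at 96 h show where levels stood later, with no replicate and so no test. Of the probe sets that had risen in CD8 cells 48.1% stood above their 48 h mean at 96 h, 40.4% between the 48 h and 24 h means and 11.5% below both. Of those that had fallen in CD8 cells 63.9% stood below their 48 h mean, 34% between and 2.06% above both. In CD4 cells 51.6% of the risen stood above their 48 h mean, 33.9% between and 14.5% below both. There 68.5% of the fallen stood below their 48 h mean, 29.6% between and 1.96% above both. The lists divided along these lines. Mitosis genes had come down towards their controls, with a median level over the list of 93.4 in CD8 and 85 in CD4 cells at 96 h. Their controls had lower medians, 67.5 in CD8 and 65.3 in CD4 cells, and all of these medians lay below the background level. Of the 27 ribosome biogenesis genes, 19 in CD8 and 23 in CD4 cells stood below their 48 h mean and 8 in CD8 and 4 in CD4 cells above it. Their median level was 383 in CD8 and 380 in CD4 cells at 96 h, and all 27 were below their 24 h mean in both. Interferon response genes stood above their 48 h mean in 15 of 23 in CD8 and 17 in CD4 cells. Their median level was 290 in CD8 and 347 in CD4 cells at 96 h, and 621 in CD8 and 555 in CD4 controls. Naive and memory genes stood above their 48 h mean in 12 of 20 in CD8 and 12 in CD4 cells. Their median level was 2282 in CD8 and 2142 in CD4 cells at 96 h, and 2271 in CD8 and 2270 in CD4 controls.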

How the data were processed

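Affymetrix whole transcript arrays measured biotin-labelled total RNA extracted with TRIzol. The deposited values are linear intensity per probe set, made by the authors with RMA in Affymetrix Power Tools, per the submitters' processing notes, whose version is not given in the sources used here. Of 24922 probe sets, 21425 have 1 gene symbol in the platform annotation, 1399 several and 2098 none listed. The log2 of the deposited intensity was taken, and 14411 probe sets were tested, those with at least 1 group mean at or above the overall median intensity (121). limma 3.58.1 in R 4.3.3 was fitted over 22 arrays in 12 groups, with 10 residual degrees of freedom, and tested on simulated data. A gene with several probe sets is given by the one with the highest mean. The 12 groups hold 1 or 2 arrays, which limits the precision. The members and lists were chosen with earlier results of these data known, and named genes were the largest changes and up to 4 called members of each list, apart from those said to be chosen later. Alternatives were the filter, an added constant, normalization, the arrays fitted, a replicate block and leaving out arrays. With 2 replicates per group the replicate numbers cannot be shown to pair samples (deviations at 24 h and 48 h correlated with r = 0.47 in CD8 and 0.68 in CD4 cells). Promoters and miRNAs came from RefSeq tables, with a promoter for 552 of 684 tested members.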

Additional observations from a re-analysis of the deposited data

Results flagged for a closer look

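The following results were picked out because the change at 48 h over 24 h differed between CD8 and CD4 cells by the test of the difference itself, the CD8 step minus the CD4 step in limma at a Benjamini-Hochberg adjusted p under 0.05. That held for 50 probe sets, and the genes named are the 10 largest differences in each direction. Each difference below is on the log2 scale, and a positive one means that the CD8 change was above the CD4 change.

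The CD8 change was above the CD4 change for Klrb1f (2.39) and Klrd1 (1.69), which encode receptors of the NK gene complex, for Myo1f (2.19), for the amino acid transporters Slc43a1 (2.15) and Slc6a19 (2.07), and for Fam241a (1.80), Itgae (1.71), the lysosomal channel gene Mcoln2 (1.21), Smim3 (1.20) and the adaptor gene Grap (1.16). Klrb1f belongs to a family of near copies, so its probes may share transcripts.

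The CD8 change was below the CD4 change for the chemokines Xcl1 (-2.70) and Ccl3 (-2.11), for Coro2a (-2.03), Igfbp4 (-1.81), the cytokine feedback gene Cish (-1.71), Lrrc32 (-1.58), which encodes a surface carrier of TGF beta, Zbtb32 (-1.58), Pdlim4 (-1.50), Nr4a1 (-1.47) and Bcl2 (-1.46). Lrrc32 had 163 and 188 in CD8 cells at 48 h, against 441 and 602 at 24 h, and 253 and 310.1 in CD4 cells at 48 h, against 239 and 316 at 24 h. Cish had 245 and 251 in CD8 cells at 48 h, against 1203 and 1212 at 24 h, and 869 and 1095 in CD4 cells at 48 h, against 1294 and 1629 at 24 h.

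Some of these differences did not keep their call when any of several arrays was left out. Those of Klrb1f, Klrd1, Mcoln2 and Grap were not called on leaving out 1 array in turn, for 5 of the 8 arrays in Klrb1f, 7 in Klrd1, 6 in Mcoln2 and 5 in Grap. Those of Smim3 and Lrrc32 were called without each array but not with only the 24 h and 48 h arrays. The others named were called without each array. With all arrays of the series in one fit the differences of Ccl3, Itgae, Nr4a1, Klrd1, Mcoln2, Smim3, Grap and Lrrc32 were not called. Smim3 lay below background in all 4 groups at 24 h and 48 h, as did Klrb1f, Xcl1, Ccl3, Myo1f, Slc6a19, Itgae, Klrd1, Mcoln2 and Pdlim4 in some, so that the sizes of these differences are not measured.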

How the results depend on the processing

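Under all alternatives run, 3543 to 5233 probe sets were called in CD8 and 3279 to 5212 in CD4 cells, each within 1.5-fold of the count reported. With the replicate block 5233 were called in CD8 cells, 5212 in CD4 cells and 65 for the CD8 step minus the CD4 step, but with 2 pairs the replicate numbers cannot be shown to pair samples. The count of called differences, 50, was 30 with the stricter filter, 29 with only the 24 h and 48 h arrays, and 22 with all arrays of the series in one fit, and 33 to 49 with 1 array left out in turn. Fewer probe sets are tested under the stricter filter and fewer arrays enter the smaller fit, and the cause was otherwise not tested. Quantile normalization gave 2326 higher and 2417 lower in CD8 cells and 2295 higher and 2344 lower in CD4 cells. Of the settings of the genes named here, 6507 stayed called or stayed not called, 143 lost the call and 25 gained it. No called change reversed its direction, and changes that were not called were not counted by direction. Over the alternatives run the list medians near 0 changed sign, between -0.14 and 0.12 for cytotoxic genes, -0.19 and 0.05 for p53 targets, -0.11 and 0.10 for hypoxia genes and -0.23 and 0.02 for respiratory chain genes in CD8 cells, and between -0.13 and 0.11 for effector and helper transcription factors, -0.09 and 0.04 for ribosomal proteins and -0.13 and 0.0016 for hypoxia genes in CD4 cells. With no filter the medians of cytokine genes and, in CD4 cells, of homing receptors and of cell cycle inhibitors moved towards 0, as given with those lists, since more dim members enter. Replicates are 2 per group and 1 at 96 h, dim probe sets such as the miR-17 cluster lie within background, and a probe set cannot tell near copies of a gene apart.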
